A study of Homo sapiens with 26 samples.

Results

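Voltage-gated sodium and calcium channel genes were followed through a RUNX1T1 knockdown series in KELLY, a human neuroblastoma cell line. The genes were taken by symbol: the pore-forming sodium channel alpha subunits (SCN1A to SCN11A), the sodium channel beta subunits (SCN with a final B), the calcium channel alpha1 subunits (CACNA1), the alpha2delta subunits (CACNA2D), the calcium channel beta subunits (CACNB) and the gamma subunits (CACNG). The symbol rule uses no measured value, though it was set with earlier results of these data known. It gave 40 genes of the 26485 in each expression table. Of these, 26 had enough counts to be tested in cultured cells and 28 in xenografts.

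RNA sequencing covered 26 libraries in 8 groups. In culture, KELLY lines carrying the empty vector FH1UTG (EV), the hairpin sh4 or the hairpin shAMB, both hairpins labelled as directed against RUNX1T1, were kept for 72 h in DMSO or doxycycline, the inducer of the hairpin, with 3 libraries in each of the 6 groups. KELLY tumours grown in mice gave 4 libraries labelled control, from mice on control food, and 4 labelled RUNX1T1 KO, from mice on doxycycline food. All 8 groups thus share the KELLY background, and the lentiviral vector is common to the 6 culture groups. The study's methods describe subcutaneous engraftment of hairpin-carrying cells in female NOD SCID gamma mice, which lack lymphocytes, so the KO label stands beside an inducible knockdown. The xenograft labels name no hairpin. The study's text gives its first hairpin, built on the Ambion siRNA sequence, as the one used in mice, which by its name is likely shAMB. No empty-vector tumour on doxycycline was in the set, so the diet and the genotype label cannot be told apart there. Nothing in the labels says that replicates came from separate cultures, and p-values therefore measure the spread between these libraries, which may be technical.

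Voltage-gated channels open when the membrane depolarizes. Sodium channels carry the rising phase of the action potential in neurons and muscle, and calcium channels turn depolarization into calcium entry that drives transmitter release, secretion and gene expression. The alpha subunit forms the pore, whereas beta, alpha2delta and gamma subunits set how many channels reach the membrane and how they gate. Neuroblastoma arises from the sympathetic lineage, whose mature cells are excitable and secrete catecholamines.

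Upstream sequence was available from RefSeq (GRCh38.p14) for 26 of the 40 genes, as 40 windows of the 250 bases before an annotated start. Shown here are those of CACNA2D2, CACNA1D and CACNA1C, which changed at least 2-fold with a hairpin, and of CACNA1B, the calcium channel pore with the highest level, to set their letters beside the expression values. Of the other genes described library by library, CACNG8 had no entry. They were read 5′ to 3′ on the strand of the gene. Capitals mark GGGCGG (the GC box), CACGTG (the E-box bound by MYC and MAX) or CAGCTG (another E-box) on either strand, and some neighbouring GC boxes overlap. TGTGGT, the core bound by RUNX factors, was searched as well. CACNA2D2 has a pair of starts, at chr3:50504245-50504494 and chr3:50503635-50503884 on the minus strand. The other windows are at chr3:53494361-53494610 for CACNA1D, chr12:2052737-2052986 for CACNA1C and chr9:137877532-137877781 for CACNA1B, all on the plus strand. The CACNA1C window precedes an internal start, since the gene as a whole spans chr12:1970780-2697950.
CACNA2D2, distal start: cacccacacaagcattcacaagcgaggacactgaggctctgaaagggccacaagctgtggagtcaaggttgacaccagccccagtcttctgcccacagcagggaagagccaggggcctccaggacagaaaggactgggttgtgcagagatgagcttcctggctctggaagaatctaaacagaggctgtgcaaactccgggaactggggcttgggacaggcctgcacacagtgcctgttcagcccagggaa
CACNA2D2, proximal start: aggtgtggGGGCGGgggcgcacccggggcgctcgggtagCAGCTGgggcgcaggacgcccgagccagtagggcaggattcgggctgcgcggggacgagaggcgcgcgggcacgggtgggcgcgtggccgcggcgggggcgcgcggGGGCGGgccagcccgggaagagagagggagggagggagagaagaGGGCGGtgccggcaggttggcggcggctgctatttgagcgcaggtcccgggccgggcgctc
CACNA1D: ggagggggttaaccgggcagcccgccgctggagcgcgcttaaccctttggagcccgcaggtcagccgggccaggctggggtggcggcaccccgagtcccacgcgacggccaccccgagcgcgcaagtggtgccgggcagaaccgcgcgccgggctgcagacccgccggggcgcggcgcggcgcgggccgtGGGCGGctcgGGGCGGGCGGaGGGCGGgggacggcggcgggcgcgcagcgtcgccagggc
CACNA1C: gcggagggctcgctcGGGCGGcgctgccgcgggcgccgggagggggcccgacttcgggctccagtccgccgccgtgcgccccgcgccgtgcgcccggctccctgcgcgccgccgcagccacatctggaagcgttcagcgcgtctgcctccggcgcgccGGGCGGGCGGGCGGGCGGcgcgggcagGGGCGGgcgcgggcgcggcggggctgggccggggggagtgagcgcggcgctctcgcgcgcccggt
CACNA1B: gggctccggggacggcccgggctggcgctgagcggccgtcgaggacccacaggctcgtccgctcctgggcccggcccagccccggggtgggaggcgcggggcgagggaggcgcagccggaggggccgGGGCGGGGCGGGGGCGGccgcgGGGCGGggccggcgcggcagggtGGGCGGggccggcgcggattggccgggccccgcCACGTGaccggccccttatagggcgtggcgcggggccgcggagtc
The proximal CACNA2D2 window and those of CACNA1D, CACNA1C and CACNA1B were GC-rich, with 78.8%, 81.6%, 85.6% and 85.2% G or C against a median of 58.0% over all 35116 windows. The distal CACNA2D2 window was at 58%, equal to that median, and the median over the 40 channel gene windows was 63.2%. GGGCGG was found in 52.5% of the 40 channel gene windows and in 42.6% of all windows, CAGCTG in 22.5% and 14.0%, and TGTGGT in 7.5% and 11%. CACGTG stood in 2 channel gene windows (5%), those of CACNA1B and CACNA1I, against 6.34% of all windows. A match describes the letters only.

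Library totals were 35115915 to 54736733 counts in culture and 47346063 to 62378060 in xenografts. At the RNA level RUNX1T1 itself, which the hairpins target, did not pass the test in any doxycycline or xenograft comparison. Its log2 fold changes were -0.16 (EV), -0.11 (sh4), 0.06 (shAMB) and -0.23 (xenografts), so groups are named by their labels throughout. Without doxycycline, it was lower in the sh4 line than in the EV line (log2 -0.29, edgeR adjusted p = 0.0144). RUNX1T1 spanned 30.1 to 33.9 CPM (counts scaled to the total of the library) in sh4 with doxycycline against 33.3 to 35.0 in DMSO, 41.3 to 44.1 against 39.9 to 42.0 in shAMB, 36.5 to 38.6 against 39.3 to 44.1 in EV, and 24.3 to 35.2 against 30.0 to 43.1 in the xenografts. The sympathetic markers, PHOX2A, HAND2, GATA3, TH, DBH and MYCN among them, were expressed in the xenografts. The CPM of all 7 summed to 3321 to 4086 in the controls and 6737 to 9076 in those labelled KO. Genes with high counts weigh most in this sum, so it does not give the direction of each marker. Of the 7, 2 were called higher, MYCN among them (log2 1.46), and 0 lower, where 41.1% of all genes were called. In culture the same sum was 3046 to 3559 in sh4 with DMSO against 4304 to 5531 with doxycycline, and 3038 to 3121 against 6859 to 7588 in shAMB. With each hairpin 3 of the 7 were called higher and 2 lower, MYCN higher in both (log2 0.68 and 1.57), GATA3 and TH lower in sh4, and HAND2 among the lower in shAMB. Over all genes 40.9% were called with sh4 and 66% with shAMB. In a bulk library, fewer cells of a type and less RNA per cell cannot be told apart.

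In cells without hairpin induction, KELLY expressed a defined subset of channel genes. Levels are compared between genes in TPM, which scales for transcript length and library total. The 40 genes summed to 190 ± 7.44 TPM (SD, n = 3) in EV with DMSO. CACNG4, a gamma subunit that regulates AMPA receptors, was the highest at 55.2 ± 3.75 TPM. It was followed by CACNA2D1 (20.8 ± 2.12) and CACNA2D3 (15.6 ± 0.17), both alpha2delta subunits that carry channels to the membrane, by SCN1A (14.4 ± 1.76), by CACNA2D2 (14.0 ± 2.31) and by SCN8A (11.2 ± 0.79). SCN1A and SCN8A encode NaV1.1 and NaV1.6, sodium channel pores of neurons. CACNA2D3, SCN1A and CACNA2D2 did not differ beyond their spreads. CACNB3, the leading beta subunit, stood at 10.3 ± 1.99 TPM and SCN3B, a sodium channel beta subunit, at 9.55 ± 0.17, also within their spreads. Among calcium channel pores, CACNA1B, which encodes the N-type channel of nerve terminals, led with 5.58 ± 0.28 TPM, ahead of CACNA1D (1.83 ± 0.05) and CACNA1C (0.81 ± 0.11), the L-type pores.

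The remaining genes were low or undetected. The 14 genes that were not tested in culture reached at most 11 counts in any library. They included the pores CACNA1A, CACNA1E, CACNA1H, CACNA1I, CACNA1S and SCN10A, the sodium channel beta subunits SCN2B and SCN4B, the alpha2delta subunit CACNA2D4 and the gamma subunits CACNG1, CACNG2, CACNG3 and CACNG6. SCN2B and CACNG2 had 0 counts in all 18 culture libraries, which allows up to 3 counts or 0.0865 CPM in the shallowest library, for counting error only. SCN3B was therefore the one sodium channel beta subunit with enough counts to be tested. In xenografts CACNA2D4 and CACNG1 passed the filter as well, and the other 12 reached at most 32 counts.

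Composition was summed by subfamily, and the shares of named genes are plotted for each library. In EV with DMSO the gamma subunits made up 34.3% ± 2.06 of the summed TPM, alpha2delta subunits 26.5% ± 0.69, sodium channel alpha subunits 21.0% ± 2.35, calcium channel beta subunits 8.76% ± 1.12, sodium channel beta subunits 5.03% ± 0.27 and calcium channel alpha1 subunits 4.38% ± 0.11 (SD, n = 3). With doxycycline in shAMB the alpha2delta share was 41.8% ± 0.48 against 27.3% ± 0.51 in DMSO, and the gamma share was 20.5% ± 0.63 against 35.2% ± 1.07. In the xenografts the alpha2delta share was 42.1% ± 2.55 in those labelled KO against 32.6% ± 1.32 in controls, and the gamma share 12.5% ± 2.14 against 22.7% ± 2.48 (n = 4). In sh4 these shares were 22.5% ± 0.96 against 24.1% ± 0.74 and 40.3% ± 2.86 against 37.6% ± 1.60. These shares are given without a test. The summed TPM of the 40 genes was 294 ± 26 in shAMB with doxycycline and 181 ± 5.98 in DMSO.

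**Figure D1:**
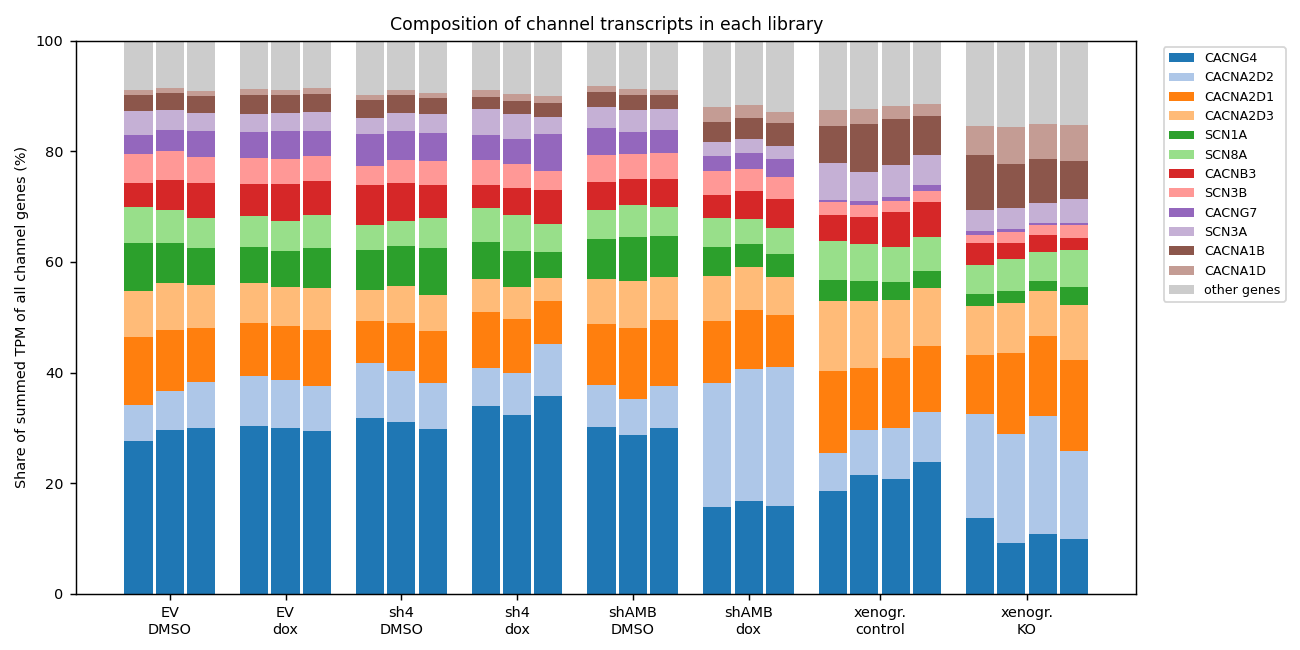
Share (%) of the summed TPM of the 40 channel genes taken by 12 named genes and by the other genes, with one bar per library and libraries arranged by group. CACNG4 takes the largest share in 5 of the 6 culture groups, and CACNA2D2 does so in shAMB with doxycycline (23.8% on average against 7.20% in DMSO).

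Doxycycline alone was examined in the EV line. None of the 26 channel genes passed an adjusted p of 0.05 in edgeR's quasi-likelihood test, where 0.0939% of all 14905 genes did (0.0134% higher and 0.0805% lower), and DESeq2 called none of them either. At an unadjusted p under 0.05 there were 2 of the 26, SCN2A and CACNA1B, where 879 of all 14905 genes passed that cut. SCN2A, the pore NaV1.2, stood at 7.27, 6.54 and 5.77 CPM in DMSO and 4.66, 5.15 and 4.90 in doxycycline, with no overlap. The difference was -0.41 on the log2 scale (SE 0.09), and the adjusted p of edgeR was 0.247. The median fold change of the channel genes was 0.04 on the log2 scale and that of all genes 0.01.

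With doxycycline in the shAMB line, channel genes of every subfamily but the gamma subunits were called higher only, and the gamma subunits were called in both directions. Of 26 genes tested, 17 passed (65.4%), 16 higher and 1 lower, against 66% of all genes, so the share called was near the background. The directions were uneven: higher calls made up 37.6% of all genes tested and lower calls 28.4%. The median log2 fold change of the channel genes was 0.39 against 0.10 over all genes, and 9 channel genes rose at least 2-fold where 17.9% of all genes changed by that much in either direction. Every adjusted p given here is from edgeR's quasi-likelihood test, adjusted by Benjamini-Hochberg across the whole table, unless another tool is named.

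Among the sodium channel pores in shAMB, 5 of 9 rose, and none fell. SCN4A, the pore of skeletal muscle, rose from 0.23 to 0.29 CPM to 0.74 to 1.15 (log2 1.96, adjusted p = 9.32e-05), at counts low enough that its standard error was 0.33. SCN8A (log2 0.38), SCN2A (0.25) and SCN11A (0.75), a pore of sensory neurons, rose by less. The calls of SCN2A and SCN11A were lost under some of the alternatives. SCN1A, the sodium pore with the highest level in culture, stood at 53.5, 56.0 and 54.1 CPM in DMSO and 52.3, 41.3 and 46.8 in doxycycline. These values did not overlap, but the difference did not pass (log2 -0.22, adjusted p = 0.0601). It passed as lower with DESeq2 (log2 -0.30, adjusted p = 0.0171) and under 4 other alternatives. SCN3B rose from 23.2 to 24.9 CPM to 28.7 to 30.7 (log2 0.32, adjusted p = 0.000260).

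Of the calcium channel pores, 4 of the 5 tested rose in shAMB. CACNA1D, the L-type pore CaV1.3 of neuroendocrine cells, stood at 7.34, 7.10 and 6.71 CPM in DMSO and 25.5, 22.2 and 21.9 in doxycycline. Every doxycycline library lay above every DMSO library, a 3.28-fold rise (log2 1.72, SE 0.08, adjusted p = 4.58e-11). CACNA1C, the L-type pore CaV1.2, was at 6.36, 5.46 and 5.94 CPM against 13.6, 12.2 and 15.0, and CACNA1B at 24.8, 23.0 and 22.5 against 44.3, 45.2 and 54.3. Both rose without overlap, by log2 1.20 (SE 0.12, adjusted p = 4.64e-07) and 1.03 (SE 0.12, adjusted p = 1.28e-06). CACNA1F, the L-type pore of the retina, also rose (log2 1.97), from at most 0.32 CPM to at most 1.04. CACNA1G, a T-type pore, did not pass (log2 1.09, adjusted p = 0.0834).

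CACNA2D2 had the largest fold change of the channel genes in shAMB. Its CPM was 37.3, 30.4 and 37.4 in DMSO and 151, 162 and 188 in doxycycline, a 4.76-fold rise without overlap (log2 2.25, SE 0.17, adjusted p = 1.17e-08). In TPM it went from 13.0 ± 1.5 to 70.1 ± 10.04, above CACNG4. The other alpha2delta subunits rose by less, CACNA2D1 by log2 0.33 and CACNA2D3 by log2 0.41. Beta subunits, which chaperone the alpha1 pore, rose in 2 of 4 cases. CACNB1 was at 4.48, 4.18 and 6.23 CPM in DMSO and 10.2, 11.2 and 13.8 in doxycycline (log2 1.24, SE 0.23, adjusted p = 0.000187). CACNB3 rose by log2 0.49, but at 0.06 (adjusted p = 0.520) once trends with GC content and length were removed, the call was lost.

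Gamma subunits moved in both directions. CACNG8, like CACNG4 a regulator of AMPA receptors, was at 5.42, 4.70 and 5.11 CPM in DMSO and 12.7, 9.83 and 14.0 in doxycycline (log2 1.26, SE 0.12, adjusted p = 1.89e-07). CACNG4 was the only channel gene called lower in shAMB, from 91.6, 84.0 and 89.9 CPM to 65.3, 69.8 and 72.2 (log2 -0.36, SE 0.08, adjusted p = 0.00127). Neither gene had overlapping libraries. CACNG5 and CACNG7 did not pass. With GC content and length trends removed, CACNG7 was called lower as well (log2 -0.69).

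The shAMB effect differed from the EV effect for 16 of the 26 genes, 15 higher and 1 lower, where 45.5% of all genes differed (23.7% higher and 21.7% lower). For 9 of them the difference was at least 2-fold and higher, where 12.7% of all genes passed with such a difference. The difference was log2 1.99 for CACNA2D2, 1.72 for CACNA1D, 1.26 for CACNG8 and 1.12 for CACNA1C. For CACNG4 it was -0.44 (adjusted p = 0.00558). Without doxycycline the shAMB line gave no call against the EV line, where 1.52% of all genes were called. At an unadjusted p under 0.05 there were 4 of 26 channel genes, where 1639 of all 14905 genes passed that cut. DESeq2 gave no call there either.

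**Figure D2:**
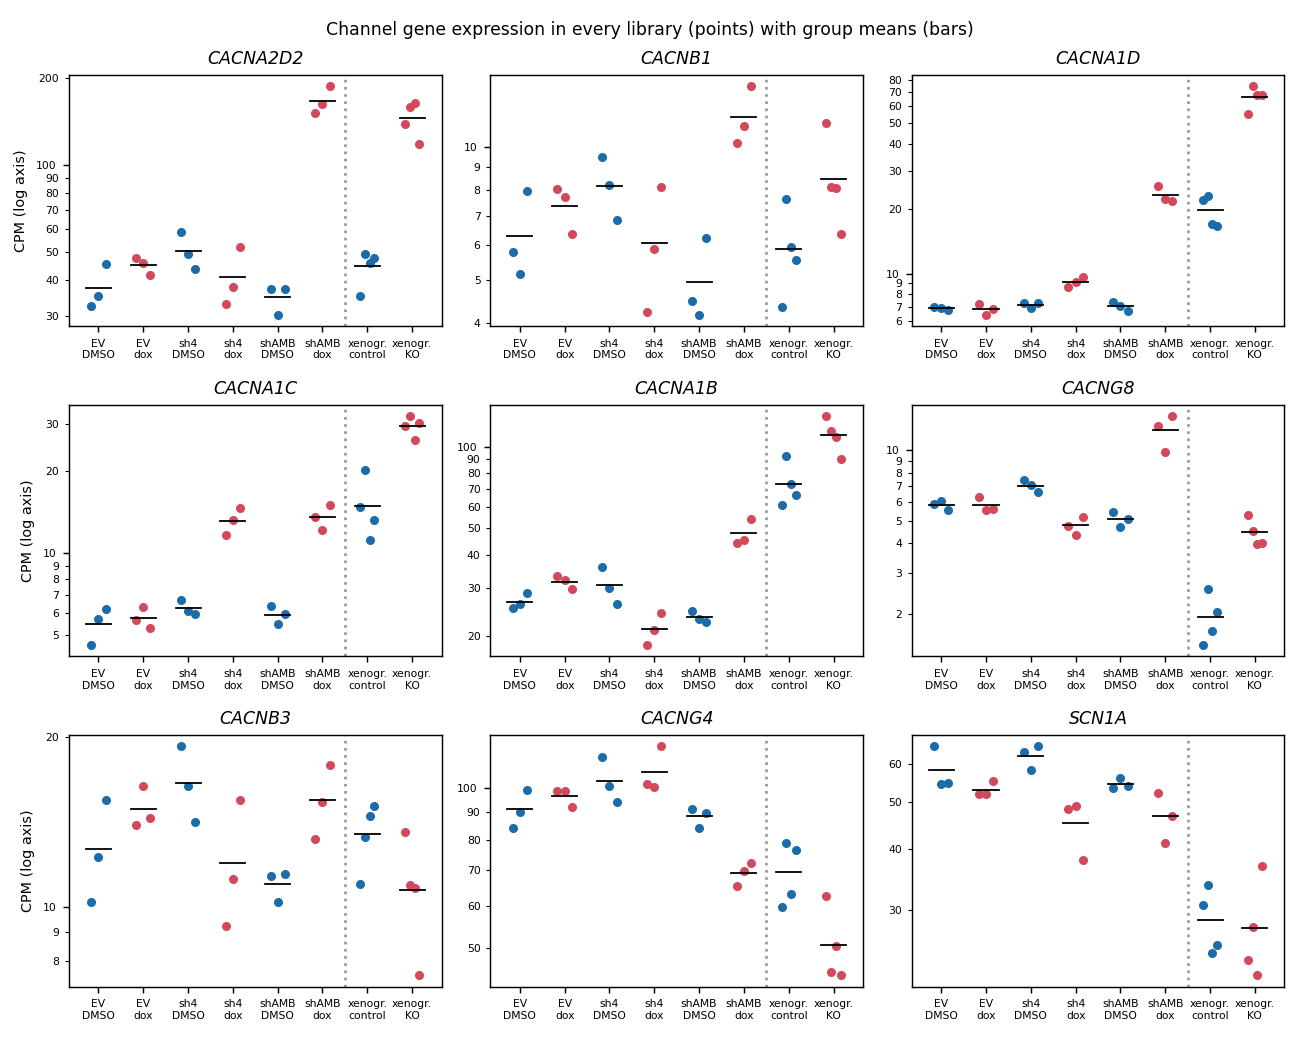
Expression in CPM (log axis) of 9 channel genes, with points for libraries and bars for group means. Blue marks DMSO or control, red marks doxycycline or KO, and the dotted line separates the culture and xenograft tables, which were normalised separately. In CACNA2D2, CACNA1D and CACNG8 the red points of shAMB and of the xenografts lie above all of their blue points.

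The sh4 hairpin gave as many calls in a different pattern. Of 26 genes, 17 passed (65.4%), 8 higher and 9 lower, where 40.9% of all genes passed (22.9% higher and 18% lower). With GC content and length trends removed the split was 6 higher and 13 lower. The median log2 fold change was -0.08 for channel genes and -0.00 for all genes, and 3 rose and 1 fell at least 2-fold, where 5.03% of all genes changed by that much. The count was 10 without sh4 doxycycline replicate 2, 11 without sh4 DMSO replicate 1, sh4 DMSO replicate 2 or sh4 doxycycline replicate 1, and 8 in a fit on the 6 sh4 libraries.

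CACNA1C rose most in sh4 among the channel genes with a mean over 1 CPM across all culture libraries, from 6.71, 6.12 and 5.95 CPM to 11.6, 13.2 and 14.7 without overlap (log2 1.07, SE 0.12, adjusted p = 3.53e-06). CACNA1D rose from 7.32, 6.90 and 7.32 CPM to 8.69, 9.13 and 9.60, a small change without overlap (log2 0.35, SE 0.08, adjusted p = 0.00186) that lost its call at log2 0.18 (adjusted p = 0.0766) with GC content and length trends removed. CACNB4, a neuronal beta subunit, rose by log2 0.77 (adjusted p = 0.000464), and its libraries did not overlap. SCN7A, a channel that senses sodium in glia and is not opened like the other sodium pores, rose by log2 1.53, from 0.33 to 0.77 CPM to 1.08 to 1.72. CACNA1G rose by log2 1.11 at 0.61 CPM or less, a call that several alternatives lost. SCN3A and SCN8A passed as higher, at log2 0.26 and 0.20, with overlapping libraries. Both lost their calls without sh4 DMSO replicate 1 or 2 or sh4 doxycycline replicate 1 or 2. Both also lost them with RLE scaling, with no filter on low counts and in a fit on the 6 sh4 libraries. With GC content and length trends removed, SCN3A was at log2 0.05 (adjusted p = 0.502) and SCN8A at 0.02 (adjusted p = 0.667).

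Lower expression in sh4 included genes that rose in shAMB. CACNA1B went from 36.1, 30.2 and 26.3 CPM to 18.5, 21.0 and 24.3 without overlap (log2 -0.54, SE 0.12, adjusted p = 0.00147). CACNG8 went from 7.46, 7.10 and 6.61 CPM to 4.75, 4.36 and 5.20, also without overlap (log2 -0.57, adjusted p = 0.00119). SCN9A, the pore NaV1.7 of sympathetic and pain-sensing neurons, went from 14.9, 13.5 and 14.5 CPM to 10.4, 9.86 and 8.68 (log2 -0.57, adjusted p = 0.000139). These 3 calls held in each of the alternatives run. SCN1A fell from 63.5, 58.4 and 65.2 CPM to 48.5, 49.1 and 38.1 (log2 -0.46, adjusted p = 0.00144), again in each alternative. CACNB3, CACNG5, CACNA1F, CACNA2D3 and SCN2A also passed as lower, and each lost its call under at least 1 alternative. CACNA2D2, which rose most in shAMB, was at 58.8, 49.3 and 43.7 CPM in DMSO and 33.1, 37.9 and 52.1 in doxycycline, overlapping (log2 -0.30, adjusted p = 0.143). It passed as lower without sh4 doxycycline replicate 3 (log2 -0.51, adjusted p = 0.00821) and with GC content and length trends removed (-0.26).

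The sh4 effect differed from the EV effect for 9 genes, 4 higher and 5 lower, where 32.6% of all genes differed. CACNG5 alone differed by at least 2-fold, lower, where 5.62% of all genes passed with such a difference. The split was 3 higher and 10 lower with GC content and length trends removed. The count was 5 without EV doxycycline replicate 2, sh4 DMSO replicate 1 or sh4 doxycycline replicate 2. In DMSO the sh4 line differed from the EV line for SCN7A alone (log2 1.78, adjusted p = 0.0474), where 1.12% of all genes differed (0.597% higher and 0.523% lower). That call was lost without any 1 of the 3 EV DMSO libraries and without sh4 DMSO replicate 1 or 3. In the same comparison 12 of 26 channel genes had an unadjusted p under 0.05, where 4180 of all 14905 genes did.

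The hairpins were compared directly by testing the sh4 effect against the shAMB effect. They differed for 18 of 26 genes, 4 higher and 14 lower in sh4, where 60.9% of all genes differed. At least 2-fold differences that passed numbered 1 higher and 8 lower, against 21.6% of all genes in either direction. Large differences among genes over 1 CPM included those of CACNA2D2 (log2 -2.56), CACNG8 (-1.83), CACNB1 (-1.67), CACNA1B (-1.57) and CACNA1D (-1.37). CACNA1C did not pass, with a difference of log2 -0.13 (95% confidence interval -0.49 to 0.24), and it passed as higher in sh4 (0.34) with GC content and length trends removed. Of the 17 genes called in each line, 10 were shared, 4 in the same direction (CACNA1C, CACNA1D and SCN8A among them) and 6 in opposite directions (CACNA1B, CACNA1F, CACNA2D3, CACNB3, CACNG8 and SCN2A). Of these 6, CACNA1B and CACNG8 kept their calls in both lines under every alternative. CACNA1F, CACNA2D3, CACNB3 and SCN2A each lost a call under at least 1 alternative, as did CACNA1D. SCN8A kept its sh4 call in only 2 of 12 alternatives. Among all genes called in both lines, which made up 69.0% of those called in sh4 and 42.7% of those called in shAMB, 56.2% had the same direction.

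**Figure D3:**
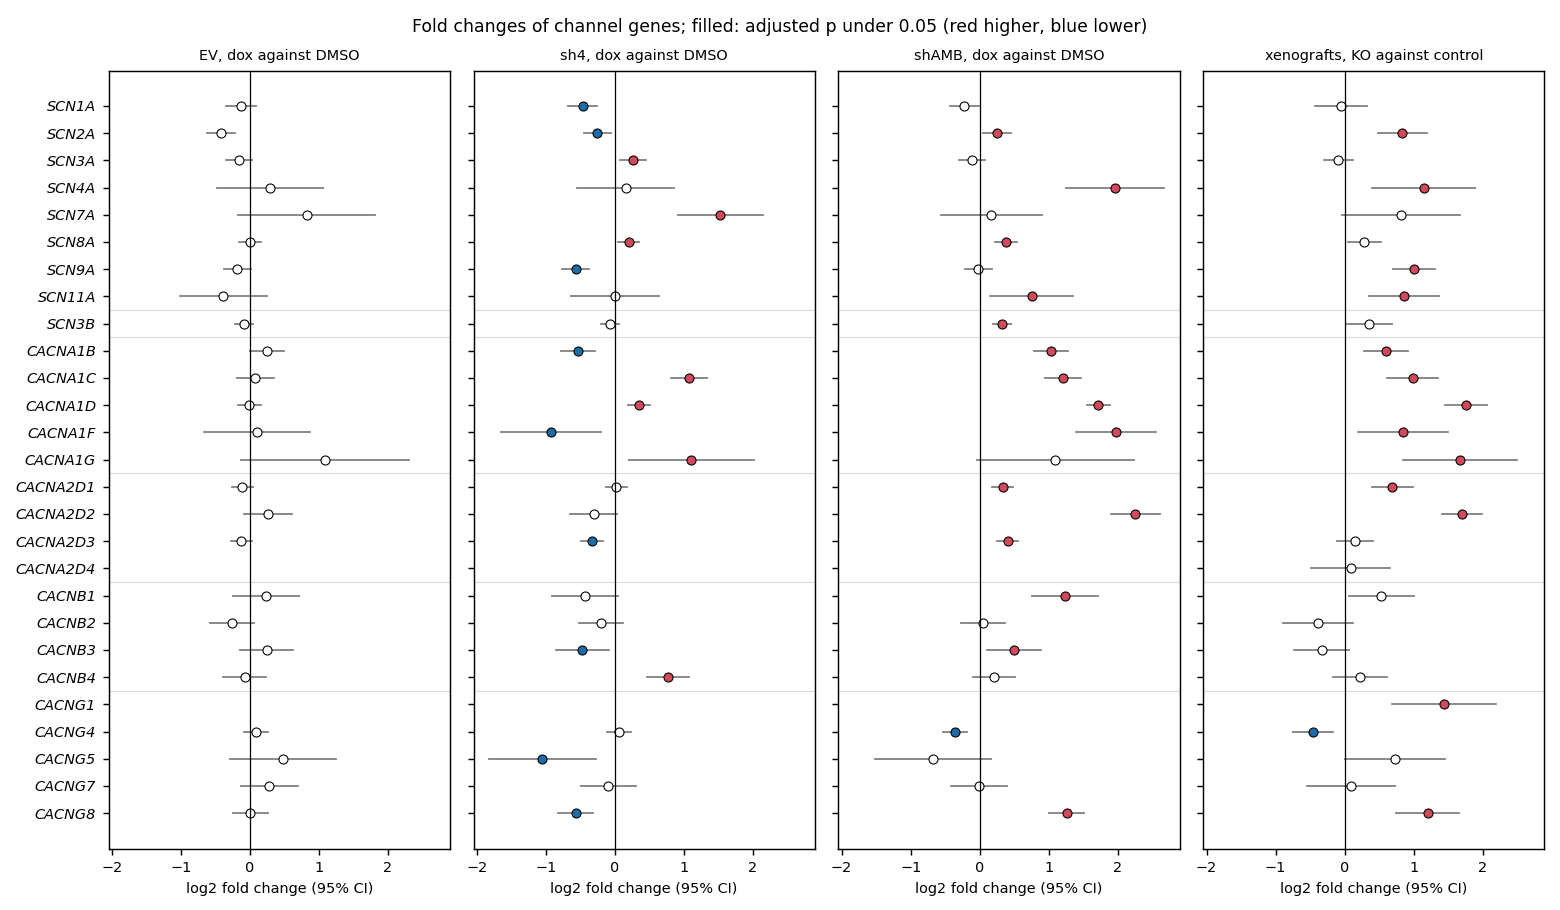
Log2 fold change with its 95% confidence interval for channel genes tested, grouped by subfamily, in EV, sh4, shAMB and the xenografts. Filled points passed an adjusted p of 0.05, red higher and blue lower. No point is filled in EV, filled points lie on both sides of zero in sh4, and CACNG4 is the one filled point left of zero in shAMB and in the xenografts.

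In xenografts, 15 of 28 channel genes passed (53.6%), 14 higher and 1 lower in tumours labelled KO, where 41.1% of all 15960 genes passed. Higher calls made up 21.2% of all genes and lower calls 19.9%. The median log2 fold change was 0.71 for channel genes against 0.02 for all genes, and 8 rose at least 2-fold where 12.5% of all genes changed by that much. All 5 calcium channel pores tested were among the higher calls.

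CACNA1D was at 22.1, 22.9, 17.1 and 16.7 CPM in controls and 55.3, 74.7, 67.6 and 67.9 in tumours labelled KO. It rose 3.38-fold without overlap (log2 1.75, SE 0.14, adjusted p = 1.02e-05). CACNA1C was at 14.9, 20.2, 11.2 and 13.3 CPM against 29.4, 32.0, 26.2 and 30.3 (log2 0.99, adjusted p = 0.000913), again without overlap. CACNA1B was at 61.0, 92.6, 72.8 and 66.2 CPM against 129.8, 114, 108 and 89.8. The lowest CACNA1B library labelled KO lay below the highest control, and the gene rose by log2 0.60 (SE 0.14, adjusted p = 0.00705). CACNA1G (log2 1.67) and CACNA1F (log2 0.85) rose at 1.31 CPM or less, and the CACNA1F call was lost under several alternatives.

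The alpha2delta subunit CACNA2D2 was at 35.4, 49.5, 45.9 and 47.8 CPM in controls and 139, 159, 164 and 118 in tumours labelled KO. It rose 3.25-fold without overlap (log2 1.70, SE 0.13, adjusted p = 1.07e-05), and CACNA2D1 rose by log2 0.69. None of the 4 calcium channel beta subunits passed. CACNB1 (log2 0.53, adjusted p = 0.0696) passed as higher without control replicate 2 (0.67) or KO replicate 4 (0.64), with DESeq2 and with GC content and length trends removed. CACNB3, their highest member, was at 11.0, 13.3, 14.5 and 15.1 CPM against 13.6, 10.9, 10.8 and 7.56, overlapping (log2 -0.33). It passed as lower without KO replicate 1 (log2 -0.47) and with GC content and length trends removed (-0.41).

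Of the sodium channel pores, 5 of 9 rose in the xenografts. SCN9A was at 22.9, 17.5, 16.7 and 17.3 CPM against 30.4, 39.1, 36.9 and 42.9, without overlap (log2 1.00, SE 0.14, adjusted p = 0.000256). SCN2A rose by log2 0.83, SCN11A by 0.86 and SCN4A by 1.14. SCN4A was low, at 0.43 to 0.82 CPM in controls and 0.81 to 2.00 in tumours labelled KO, with overlap. Its call was lost in 4 of 13 alternatives. SCN1A was at 30.7, 33.7, 24.5 and 25.4 CPM against 23.6, 27.6, 22.0 and 37.1 and did not pass (log2 -0.05, adjusted p = 0.839). SCN3B was at 12.9, 13.3, 10.2 and 11.0 CPM against 11.9, 16.3, 14.9 and 17.4 and did not pass either (log2 0.35, adjusted p = 0.0836), except without KO replicate 1 (0.45) and with GC content and length trends removed (0.28).

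CACNG8 was at 1.47, 2.55, 1.68 and 2.04 CPM in controls and 5.30, 4.52, 3.99 and 4.02 in tumours labelled KO (log2 1.20, SE 0.21, adjusted p = 0.00104). CACNG1, a gamma subunit of skeletal muscle channels, rose by log2 1.44 at 0.42 CPM or less. CACNG4 was at 59.5, 78.8, 63.1 and 76.4 CPM against 62.5, 44.9, 50.3 and 44.3. Its groups overlapped through 1 library of each, and it was the 1 gene called lower (log2 -0.46, adjusted p = 0.0180). The CACNG4 call was lost without control replicate 4 or KO replicate 2.

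Markers of cells that a tumour could hold were read beside these values. The markers are human genes and hg38 is the only genome named for the alignment, while cells of the host are mouse. Low sums therefore do not measure how many host cells were present, and mapping of mouse reads to human genes was not tested. The summed CPM of 5 endothelial markers was 0.93 to 1.32 in controls and 0.56 to 1.83 in tumours labelled KO, that of 5 macrophage and leukocyte markers 1.09 to 1.58 and 1.61 to 2.65, that of 6 skeletal muscle markers 0.68 to 3.78 and 1.42 to 2.43, and that of 5 Schwann cell markers 7.43 to 9.25 and 6.91 to 8.17. PTPRC, C1QA, C1QB, EMCN and CKM were each at 0.246 CPM or less in every xenograft library, and SOX10 at 0.519 or less. Of the tested markers, 1 of 2 endothelial markers was higher (PECAM1) and 1 lower (KDR), neither of 2 macrophage and leukocyte markers passed, 1 of 2 skeletal muscle markers was higher (ACTA1), 2 of 4 Schwann cell markers were higher (MBP and S100B) and 1 lower, and 1 of 5 fibroblast markers was higher (PDGFRB). The 7 fibroblast markers summed to 57.8 to 94.8 CPM in controls and 85.7 to 129 in tumours labelled KO, most of it PDGFRB, and to 75.1 to 89.6 CPM in cultured EV cells in DMSO. Their part in the result was not tested.

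The shAMB and xenograft comparisons share no libraries, but by the study's text they likely share the hairpin. Of 17 channel genes called in shAMB and 15 called in the xenografts, 12 were called in both, 70.6% of the first list and 80.0% of the second. The second list includes CACNG1, which was not tested in culture and so could not be called in both. Of all genes tested in both tables, the genes called in both made up 52.0% of those called in shAMB and 82.5% of those called in the xenografts. All 12 had the same direction, where 98.1% of all genes called in both had the same direction. They included CACNA1B, CACNA1C, CACNA1D, CACNA1F, CACNA2D1, CACNA2D2, CACNG8, SCN11A, SCN2A and SCN4A, all higher, and CACNG4, lower. The calls of CACNA1F, SCN4A and CACNG4 in the xenografts and of SCN11A and SCN2A in shAMB were lost under some alternatives. Of the 17 genes called in sh4, 9 were called in the xenografts, 4 in the same direction and 5 in the opposite one. Over all genes the overlap was 49.2% of those called in sh4 and 48.2% of those called in the xenografts, and 66.8% of all genes called in both had the same direction.

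**Figure D4:**
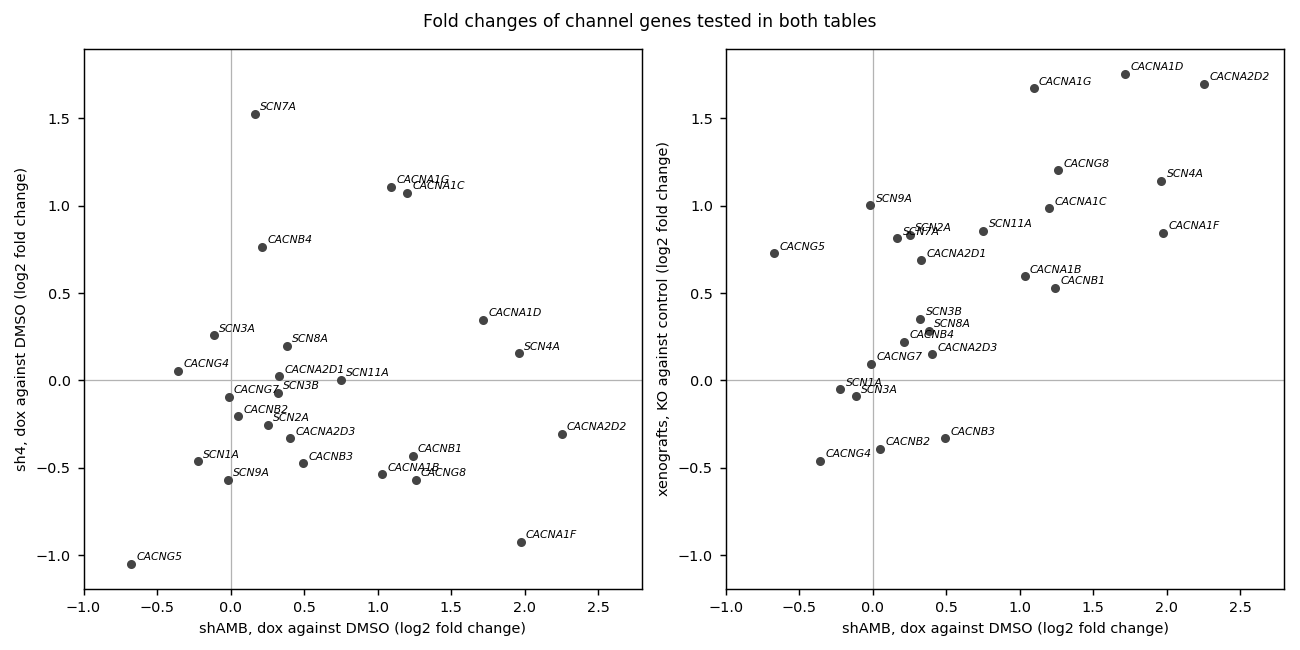
Log2 fold change of channel genes in shAMB (x axis) against sh4 (left) and against the xenografts (right), one point per gene. CACNA2D2 lies at 2.25 in shAMB with -0.30 in sh4 and 1.70 in the xenografts, and CACNA1D at 1.72 with 0.35 and 1.75.

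Genes that act with these channels were taken from lists, and their counts stand beside 40.9% of all genes called with sh4, 66% with shAMB and 41.1% in the xenografts. Of 10 tested sodium channel partners, 3 were higher and 3 lower with sh4, 5 and 3 with shAMB, and 5 and 1 in tumours labelled KO, with none called in EV. NFASC and SPTBN4, which hold sodium channels at the axon initial segment, rose by log2 1.34 and 1.19 in shAMB and by 0.85 and 1.11 in the xenografts. FGF13, a cytosolic partner of sodium channels, fell by 1.09 on the log2 scale in both. Of 18 tested calcium channel partners, 5 were higher and 5 lower with sh4, 8 and 6 with shAMB, and 6 and 3 in tumours labelled KO. CAMK2B, a calcium-activated kinase subunit, rose by log2 3.21 in shAMB and 1.97 in the xenografts and was at 0.12 in sh4. RIMBP2, which ties calcium channels to release sites, rose by log2 0.26 with sh4, 1.35 with shAMB and 1.60 in tumours labelled KO. GEM, a small GTPase that binds beta subunits and lowers calcium current, was at log2 -0.98 with sh4, 0.72 with shAMB and 2.08 in tumours labelled KO, each past the threshold. NALCN, the pore of the sodium leak channel, was at log2 -0.80 with sh4, 1.07 with shAMB and 1.45 in tumours labelled KO, again past the threshold each time. Its complex of 5 genes had 0 higher and 3 lower calls with sh4, 3 and 1 with shAMB, and 2 and 1 among the xenografts. REST, a repressor of sodium channel genes in cells outside the nervous system, rose in all 3 comparisons. Its log2 fold change was 1.14 for sh4 (adjusted p = 2.44e-08), 0.49 for shAMB and 0.54 for the xenografts (adjusted p = 0.0472), and in EV it was -0.17 without a call. RCOR1, its corepressor, was at -0.49 for sh4 and -0.20 for shAMB, both called lower, and at -0.22 for the xenografts without a call.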

How the data were processed

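The labels describe total RNA prepared with a stranded kit, while the molecule field names polyA RNA. Per the labels' processing notes, the authors aligned reads to hg38 with STAR and quantified them with RSEM, with SAMtools also named and versions not given there. They deposited expected counts and TPM per gene in 1 table of each kind for culture and for xenografts. The culture columns are marked Neg and Pos, which were read as DMSO and doxycycline from those words alone. The strand setting used in counting is not given in the sources used here, so genes that overlap others are uncertain. By the GENCODE annotation given here, CACNA1D, SCN3A, SCN1A, CACNA2D2, SCN9A and CACNB2 share 7.29% to 11.9% of their exon bases with genes on the other strand, and other members less.

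The deposited expected counts were rounded and fitted in edgeR 4.0.16 under R 4.3.3, over the 18 culture libraries together and the 8 xenograft libraries together, with filterByExpr (14905 and 15960 genes kept), TMM scaling, the quasi-likelihood F test and Benjamini-Hochberg adjustment over all genes kept at 0.05. No covariate was used. CPM were computed with TMM-scaled library sizes. TPM and shares of summed TPM are from the deposited TPM. Values set across the culture and xenograft tables, which were normalised separately, were not tested. Depth is given with the results, and a limit from a count of 0 reflects counting error alone.

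Values of every library are given for genes with an adjusted p under 0.05 and an absolute log2 fold change of at least 1 in a doxycycline or xenograft comparison and a mean of at least 1 CPM over that table, and for the gene with the highest mean TPM of each subfamily in culture. Values of a few genes that enter the counts are not reported here. SCN2A in EV was chosen after its values were seen. Partner genes were named from those called with an absolute log2 fold change of at least 1 in such a comparison, with REST and RUNX1T1 in any case and RCOR1 to complete its list. The 40 genes and the lists of partners and markers were chosen with earlier results of these data known.

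Alternatives were RLE scaling, no count filter, DESeq2 1.42.0, removal of GC content and length trends (87.4% of genes had a GC value, the others took the median), the replicate number as a block, fits on 1 line alone and leaving out each library. The edgeR fit was tested on simulated data drawn from the real means, library sizes and gene-wise dispersions, and it kept its false calls within the limit set for that test. DESeq2 did not: in the simulation its share of false calls was above that same limit. A fold change was counted as reversed only where it was called in at least 1 of the fits compared.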

Additional observations from a re-analysis of the deposited data

Results flagged for a closer look

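In the xenograft controls, replicate 1 had the highest SCN9A level, at 22.9 CPM, set apart from the other 3 controls by Dixon's rule. This was 1 of 56 groups tested, and chance flags about 1 in 20 groups.

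The other results were singled out because an effect of doxycycline differed between lines by an interaction test in edgeR. Against the EV effect, the sh4 effect on the log2 scale differed by -0.78 for CACNA1B, 1.00 for CACNA1C, 0.36 for CACNA1D, -0.72 for CACNB3, -0.57 for CACNG8 and -0.39 for SCN9A. CACNA1B and CACNA1C kept these calls in every alternative. The call was lost in 4 of 17 alternatives for CACNA1D, 9 for CACNB3, 2 for CACNG8 and 10 for SCN9A. Against the EV effect, the shAMB effect differed by 0.79 for CACNA1B, 1.12 for CACNA1C, 1.72 for CACNA1D, 1.99 for CACNA2D2, 1.01 for CACNB1, -0.44 for CACNG4, 1.26 for CACNG8 and 0.40 for SCN3B. Between the hairpins, the sh4 effect minus the shAMB effect was -1.57 for CACNA1B, -1.37 for CACNA1D, -2.56 for CACNA2D2, -1.67 for CACNB1, -0.97 for CACNB3, 0.41 for CACNG4, -1.83 for CACNG8, -0.39 for SCN3B and -0.55 for SCN9A. The comparisons with EV share the EV libraries.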

How the results depend on the processing

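The number of channel genes called in sh4 was 17 and became 11 with no filter on low counts and 8 in a fit on the 6 libraries of that line, and leaving out 1 library gave 10 to 16. Leaving out 1 library gave 14 to 16 in shAMB, 13 to 18 in the xenografts, 5 to 13 for sh4 against EV, 15 to 16 for shAMB against EV, 16 to 18 between the hairpins, 0 to 1 for the sh4 line against the EV line in DMSO, and 0 in EV and for the shAMB line. The sh4 line against the EV line gave 0 calls with RLE scaling and with no filter, 4 with DESeq2 and 3 with GC content and length trends removed, and the shAMB line against the EV line gave 2 with those trends removed. Removing these trends also reversed 7 fold changes: CACNA2D1 in sh4 (-0.18) and in sh4 against EV (-0.22), CACNG4 (0.22) and SCN3B (-0.20) in sh4 against EV, and CACNA1C (0.34), CACNG7 (0.81) and SCN3A (-0.032) between the hairpins. It moved the median of all genes between the hairpins from -0.09 to -0.20. In each case the cause was not tested. Of the genes given library by library, CACNA1B, CACNA1C, CACNA1D, CACNA2D2 and CACNG8 kept their calls in both shAMB and the xenografts in every alternative run.

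With the replicate number as a block, 0 channel genes were called in EV, 14 in sh4, 17 in shAMB, 9 for sh4 against EV, 16 for shAMB against EV, 18 between the hairpins, 0 for each line against EV in DMSO and 12 in the xenografts. Deviations of same-numbered libraries correlated at -0.603 to 0.578 in culture and -0.497 to 0.374 in xenografts. The best match was the library's own number for 0 of 6 EV, 0 of 6 sh4, 1 of 6 shAMB and 2 of 8 xenograft libraries, so pairing by number was not shown. Deviations from the means of so few libraries cannot exclude a shared batch. Depth limited the genes at low counts: CACNA1F, CACNA1G, CACNG5 and SCN4A had standard errors of 0.27 to 0.54 on the log2 scale in sh4 and shAMB.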
